A study of Mus musculus with 3 samples.

Results

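Prostaglandin synthesis and breakdown were followed through 7 of the 31053 genes in the matrix, chosen by symbol: the cyclooxygenases Ptgs1 and Ptgs2, the prostaglandin D synthases Ptgds and Hpgds, the prostaglandin E synthases Ptges and Ptges3, and the breakdown enzyme Hpgd. Each symbol matched 1 gene. Single-cell libraries were made with a 10x Genomics 3′ kit from brain tissue of mice labelled as strain C56BL6 and 10 weeks of age, with 1 library each for control, ischemic stroke and hemorrhagic stroke. The control mice had no stroke, the ischemic stroke mice had the middle cerebral artery occluded with a suture and then reperfused, and the hemorrhagic stroke mice received collagenase IV in the right striatum. The target tissue of several mice was pooled in each library, and no genotype other than the strain was given. The barcodes carry a suffix of 1, 2 or 3 for the library, but no source used here pairs a suffix with a condition, so conditions were not compared. The matrix was read as 1 pooled sample, and the 3 libraries are set side by side by their suffix with no test.

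Prostaglandins are lipid signals made in steps. A phospholipase frees arachidonic acid from membranes, a cyclooxygenase turns it into prostaglandin H2, and a terminal synthase turns that into prostaglandin D2, E2, I2 or thromboxane. Prostaglandin D2 promotes sleep and prostaglandin E2 mediates fever and inflammation in the brain. The 15-hydroxyprostaglandin dehydrogenase encoded by Hpgd inactivates them by oxidation, and the intermediate can pass between neighbouring cells, so the steps need not lie in the same cell.

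Of 35968 barcodes, 31982 (88.9%) held at least 1000 UMIs and at most 30% mitochondrial UMIs. A UMI is a tag that marks 1 captured transcript. The libraries held between 69270514 and 105957232 UMIs, and their kept cells had medians between 5801 and 6389 UMIs. Cells were gated by raw UMIs of fixed marker genes, none of them among the 7 members, and 26699 cells (83.5%) fell into 1 class. Another 2913 (9.11%) passed several gates without a clear leader, and 2370 (7.41%) passed none. The oligodendrocyte-like class held 10059 cells, with Mag, a myelin adhesion protein, in 98.1% of them, and the microglia-like class held 9659 cells, with the fractalkine receptor gene Cx3cr1 in 98.3%. Library 3 stood apart in its cells: it gave 1039 of 1060 endothelial-like cells, 129 of 132 pericyte-like cells and 102 of 123 border macrophage-like cells, but 17 of 2056 T-cell-like cells and 2 of 208 choroid plexus-like cells. Levels in those classes are therefore mostly those of 1 or 2 libraries. Libraries shared 110 barcode sequences, and for 21 of the 90 kept in both, the cells fell into the same class. A level below is the sum of a gene's UMIs over a class scaled to 1000000 UMIs of that class (CPM), with an exact 95% Poisson interval that covers counting error only.

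The steps were divided among cell classes. Oligodendrocyte-like cells held 96.5% of the Ptgds UMIs of all gated cells, while microglia-like cells held 95.9% of those of Ptgs1, 93.3% of those of Hpgds and 93.3% of those of Hpgd. In the pool, Ptgs2 was shared between microglia-like cells (47.9%) and endothelial-like cells (41.8%), which were 3.97% of the gated cells. The libraries differed in this split. Of the Ptgs2 UMIs of all barcodes, microglia-like cells held 2129 of 3477 in library 1 and 3174 of 4349 in library 2. In library 3, which gave 1039 of the 1060 endothelial-like cells, microglia-like cells held 380 of 6770. Endothelial-like cells also held 85.5% of the Ptges UMIs. Ptges3 alone was spread much as the cells were, with 46.9% in oligodendrocyte-like and 30.7% in microglia-like cells, which made up 37.7% and 36.2% of gated cells.

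**Figure D1:**
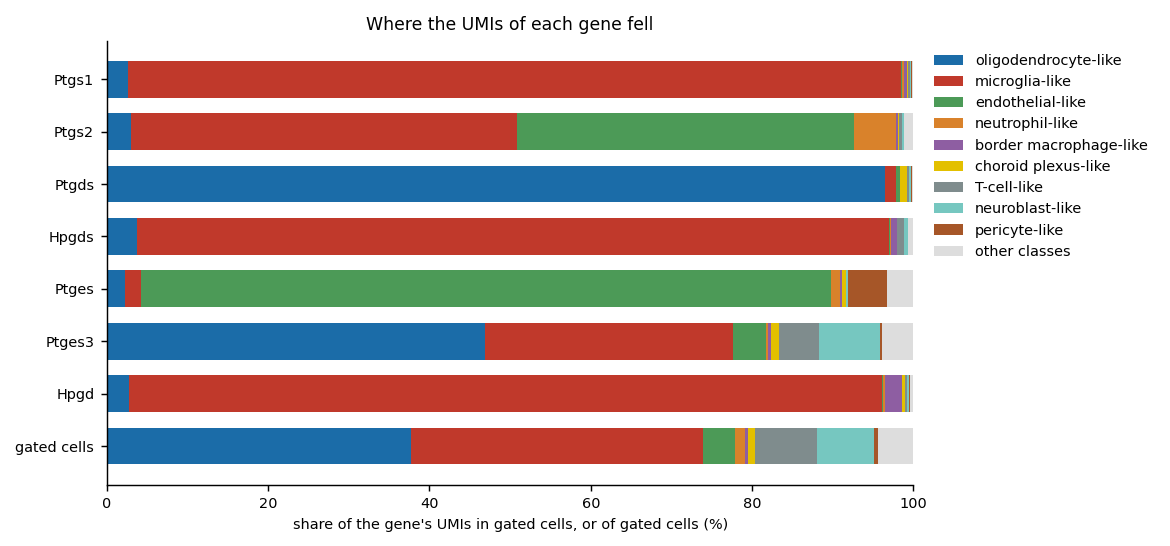
Share of each gene's UMIs in gated cells by class (%, horizontal axis), all libraries pooled, with the share of gated cells in the lowest bar. The bar of Ptgds is nearly all oligodendrocyte-like (96.5%), those of Ptgs1, Hpgds and Hpgd nearly all microglia-like (93.3% to 95.9%), and that of Ptges mostly endothelial-like (85.5%).

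Between the main glial classes, 6 members had at least 10 CPM in either class. Ptgds was 88.2-fold higher (interval 87.0 to 89.4) in oligodendrocyte-like cells, and 132-fold, 132-fold and 29.7-fold in libraries 1, 2 and 3. The microglia-like level under this fold is taken as background below, which was not tested. On that reading the fold is a ratio to background. It differs between libraries far beyond its counting interval. Ptgs1 was 28.5-fold higher (25.8 to 31.6) in microglia-like cells, Hpgd 26.4-fold (23.9 to 29.1), Hpgds 19.6-fold (18.1 to 21.2) and Ptgs2 12.5-fold (11.2 to 13.9). In libraries 1, 2 and 3 these folds were 20.4, 19.5 and 83.0 for Ptgs1, 20.8, 19.7 and 62.7 for Hpgd, 16.4, 13.1 and 47.0 for Hpgds and 10.1, 10.4 and 12.3 for Ptgs2, so microglia-like cells were higher in each library. Without the 10% of cells with the highest doublet scores, the pooled folds were larger by 2.26 times for Ptgs1, 1.72 times for Hpgd, 1.78 times for Hpgds and 2.02 times for Ptgs2. With cells passing exactly 1 gate they were larger by 1.79 times for Ptgs1, 1.54 times for Hpgd and 1.77 times for Ptgs2. Ptges3 was 1.97-fold higher (1.93 to 2.02) in oligodendrocyte-like cells. Among the 8611 genes with at least 10 CPM in either class, 19.1% were at least 4-fold higher in oligodendrocyte-like cells and 13.3% at least 4-fold higher in microglia-like cells. Of the 6 members, 1 and 4 passed those limits. The median log2 ratio of oligodendrocyte-like over microglia-like cells, with 1 CPM added, was 0.64 over all 8611 genes and -3.78 over the 6 members.

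**Figure D2:**
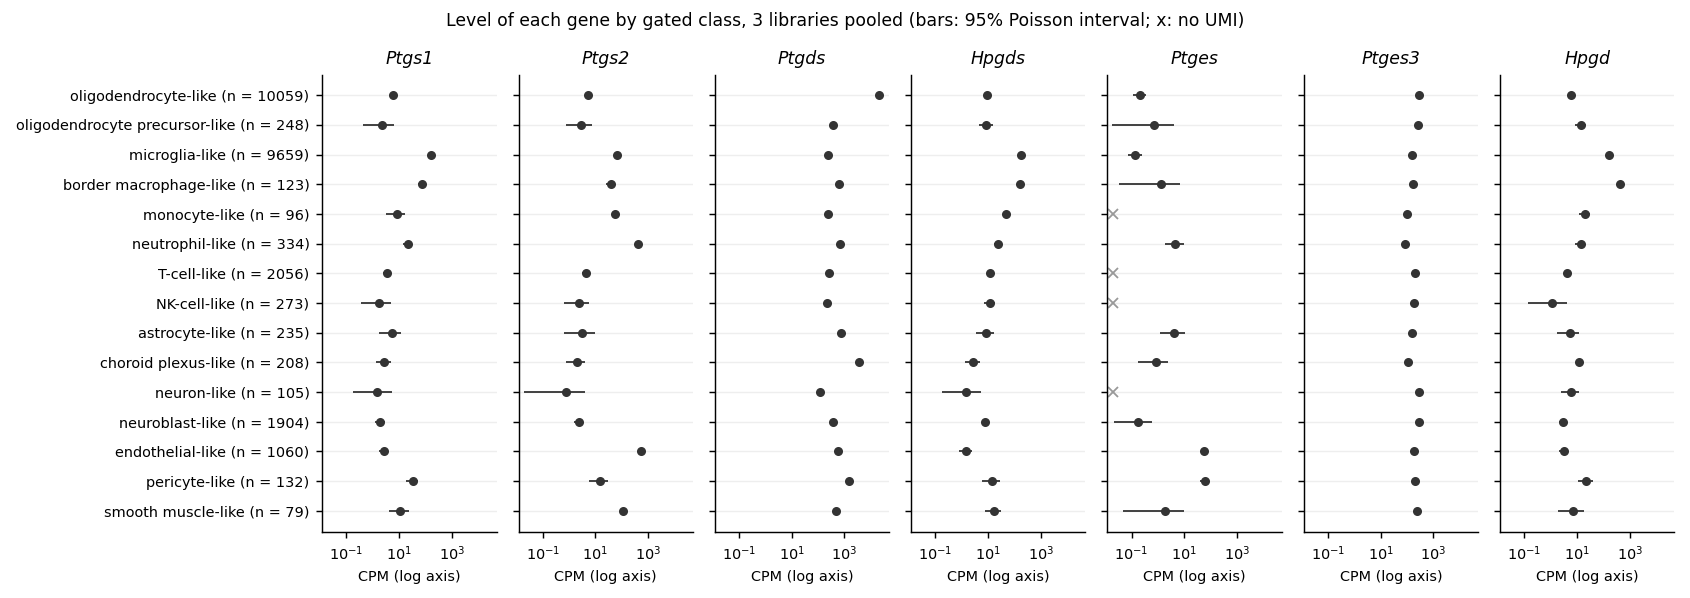
CPM of each member (log axis) in the 15 classes with at least 50 cells. Points are pooled levels, bars their 95% Poisson intervals and crosses classes with no UMI, and each panel but that of Ptges3 has 1 to 4 classes far above the rest.

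The 250 bases before the start of each gene were read from RefSeq (build GRCm38.p6), 1 promoter for each of the 7 members. RefSeq's starts differ from those of the gene positions given below, which are from GENCODE: the promoters of Ptgds and Ptges lie inside the GENCODE span of the gene and that of Hpgds lies partly inside it, while those of Ptgs1 and Ptgs2 end at the base before the gene. Those of Ptgs1 (chr2:36230176-36230425, plus strand) and Hpgds (chr6:65144731-65144980, minus strand) are shown because both genes had their highest pooled level in microglia-like cells. That of Ptgds (chr2:25469750-25469999, minus strand) is shown because it was highest in oligodendrocyte-like cells, and that of Ptgs2 (chr1:150099781-150100030, plus strand) because it was high in several unlike classes. Capitals mark matches on either strand to GAGGAA, the core that the myeloid factor PU.1 prefers, to its longer form GAGGAAGT, which contains it, to the GC box GGGCGG, to the TATA box TATAAA and to the E-box CACGTG.
Ptgs1: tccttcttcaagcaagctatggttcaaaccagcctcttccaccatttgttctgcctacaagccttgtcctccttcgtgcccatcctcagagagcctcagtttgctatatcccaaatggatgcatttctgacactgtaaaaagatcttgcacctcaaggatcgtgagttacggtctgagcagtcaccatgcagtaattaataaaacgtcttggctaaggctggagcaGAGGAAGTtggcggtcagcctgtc
Hpgds: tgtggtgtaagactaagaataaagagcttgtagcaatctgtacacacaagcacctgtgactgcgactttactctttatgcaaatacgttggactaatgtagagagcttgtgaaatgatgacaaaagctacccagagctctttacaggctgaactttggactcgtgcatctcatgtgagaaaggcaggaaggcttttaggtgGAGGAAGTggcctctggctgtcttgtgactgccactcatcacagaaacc
Ptgs2: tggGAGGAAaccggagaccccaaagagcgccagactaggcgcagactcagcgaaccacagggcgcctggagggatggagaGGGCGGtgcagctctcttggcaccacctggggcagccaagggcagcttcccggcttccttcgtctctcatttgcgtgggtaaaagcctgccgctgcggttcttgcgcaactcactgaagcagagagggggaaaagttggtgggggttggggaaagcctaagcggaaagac
Ptgds: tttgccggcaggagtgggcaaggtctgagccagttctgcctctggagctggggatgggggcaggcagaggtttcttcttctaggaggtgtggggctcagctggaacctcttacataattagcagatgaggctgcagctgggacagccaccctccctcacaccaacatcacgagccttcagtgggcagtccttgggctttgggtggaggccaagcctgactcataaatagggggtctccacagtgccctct
GAGGAA was found before 5 of the 7 genes, Ptgds and Ptges3 lacking it, and in 23.3% of the 32841 promoters of the same length. The longer GAGGAAGT, searched after the letters were seen, was found before Ptgs1 and Hpgds and in 2.44% of promoters. It began 24 bases before the start of Ptgs1 and 49 bases before that of Hpgds, on the strand of the gene in both. GGGCGG was found before 4 members (Ptgs2, Hpgd, Ptges and Ptges3) and in 32.7% of promoters. No member had TATAAA or CACGTG, which 12.4% and 6.02% of promoters had. These are matches of letters and no factor was measured.

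Ptgs1, the constitutive cyclooxygenase, lies on the plus strand of chromosome 2 at chr2:36230426-36252272 of GRCm38. Its level in microglia-like cells was 162 CPM (159 to 165), and 64.5% of these cells had a UMI. T-cell-like cells, taken as a class that should lack the gene, had 3.5 CPM and a UMI in 1.80% of cells, at a median depth of 4694 UMIs against 7574 in microglia-like cells. With each cell thinned to 1000 UMIs the shares were 17.4% and 0.340%. By library, microglia-like cells had 138, 117 and 385 CPM. Library 3 was thus the highest by far, and the share of cells with a UMI was 62.0%, 58.1% and 85.8%. Border macrophage-like cells followed at 70.6 CPM (53.3 to 91.7), clear of microglia-like cells above and of every class below in the pool. Library 3 gave 102 of these 123 cells, so the size of the pooled gap to microglia-like cells depends on the mix of libraries. Pericyte-like cells had 32.6 CPM, but from 16 UMIs in 132 cells, and their interval overlapped that of neutrophil-like cells at 20.9 CPM. Oligodendrocyte-like cells had 5.68 CPM (5.13 to 6.27), and a UMI of Ptgs1 or Ptgs2 was found in 4.25% of them against 3.02% of T-cell-like and 70.6% of microglia-like cells.

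Ptgs2, the inducible cyclooxygenase that drugs against inflammation target, lies on the plus strand of chromosome 1 at chr1:150100031-150108227. It was highest in endothelial-like cells, the lining of vessels, at 524 CPM (509 to 539), followed by neutrophil-like cells at 403 CPM (372 to 436). The pooled order of this pair was not stable. Library 3 gave 1039 of the 1060 endothelial-like cells and library 1 gave 229 of the 334 neutrophil-like cells. The pooled order therefore sets unlike libraries beside each other, and without library 3 only 21 endothelial-like cells remained. Endothelial-like cells were below neutrophil-like cells by the mean of the per-cell CPM (213 and 485), after thinning to 1000 UMIs (198 and 473), with cells passing exactly 1 gate (354 and 594), with barcodes beyond 2 SD of the mean UMI or gene number left out and no UMI minimum (183 and 439), and without library 3 (467 and 544). A UMI was found in 27% of endothelial-like and 50.6% of neutrophil-like cells, although the latter were shallower (medians of 5933 and 3120 UMIs). The gene was concentrated in few endothelial-like cells: the 8.49% with 10 or more UMIs held 88.7% of the class's Ptgs2 UMIs, and the highest cell had 282. In neutrophil-like cells the highest cell had 27. Smooth muscle-like cells had 63 UMIs in 79 cells, all of them in 4 cells, and 62 of the 63 came from library 2, so no level is read from them. Microglia-like cells came next at 64.5 CPM (62.8 to 66.2), with a UMI in 17.2% of cells, and their interval overlapped that of monocyte-like cells at 55.8 CPM. Oligodendrocyte-like cells had 5.17 CPM and a UMI in 1.80% of cells, beside 4.30 CPM in T-cell-like cells.

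Library 3 changed place between the cyclooxygenases. In microglia-like cells the level was 77.1, 66.1 and 30.3 CPM in libraries 1, 2 and 3, so that library 3, the highest for Ptgs1, was the lowest for Ptgs2. In neutrophil-like cells it was 602 (229 cells), 289 (64 cells) and 30.9 CPM (41 cells), and without library 1 the pooled level was 116 CPM. The neutrophil-like cells of library 3 were also the deepest, at 7693 UMIs in the median beside 3164 and 2456.5 in libraries 1 and 2, and gave 13 Ptgs2 UMIs in all. In endothelial-like cells, the 1039 cells of library 3 had 525 CPM and the 19 of library 2 had 491 CPM, from 73 UMIs in 2 cells, while the 2 cells of library 1 had no UMI. Within library 3, endothelial-like cells were thus far above neutrophil-like cells (525 and 30.9 CPM). Condition and library could not be matched here.

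**Figure D3:**
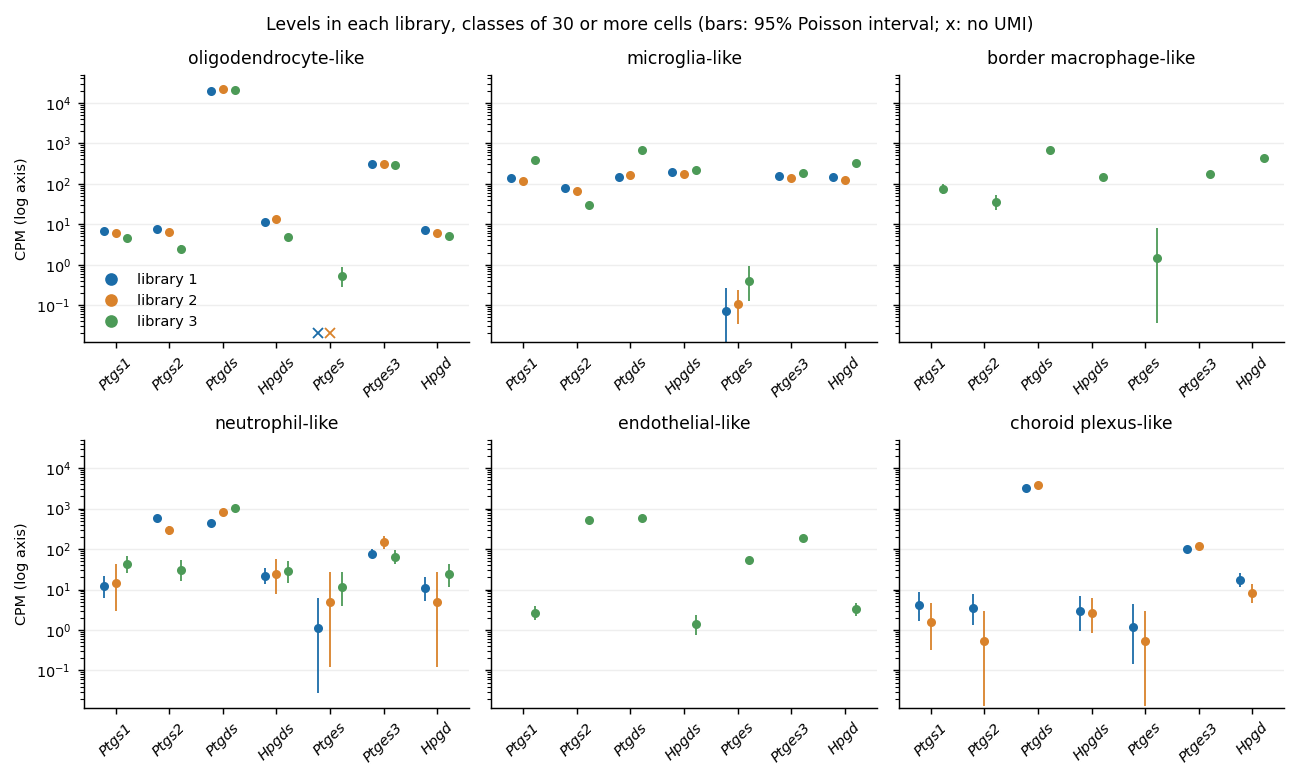
CPM of each member (log axis) in the 3 libraries for 6 classes, shown where a class had at least 30 cells in the library, with 95% Poisson intervals and crosses for no UMI. Library 3 lies highest for Ptgs1 (385 CPM) and Hpgd (319 CPM) and lowest for Ptgs2 (30.3 CPM) in microglia-like cells, while Ptgds in oligodendrocyte-like cells lies at about the same level in all 3.

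Endothelial-like cells with and without a Ptgs2 UMI were set beside each other for genes of vessel types, a choice made after values were seen. Of the 1060 cells of this class, 587 were left when a cell had to pass exactly 1 gate. The 286 cells with Ptgs2 had 843 CPM of Vcam1, an adhesion molecule for leukocytes, against 50.8 CPM in the 774 cells without. Icam1, another adhesion molecule, stood at 1515.75 and 328 CPM. Lcn2, an acute-phase lipocalin, stood at 3903 and 139 CPM, and Il1r1, the interleukin-1 receptor, at 224 and 19.9 CPM. Slc38a5, an amino acid transporter of veins and capillaries, stood at 716 and 180 CPM. Of the capillary genes, the lipid transporter gene Mfsd2a went the other way, with 103 and 212 CPM, as did Rgcc with 472 and 782 CPM, while the transferrin receptor gene Tfrc stood at 186 and 197 CPM. The cells with Ptgs2 were deeper, with a median of 12036.5 UMIs against 5173. After thinning to 4000 UMIs a UMI of Vcam1 was still found in 57.3% of 206 cells with Ptgs2 and 7.89% of 608 without, and of Il1r1 in 45.1% and 6.74%. Of the arterial genes, Bmx stood at 36.7 and 29.4 CPM, Gkn3 at 86.0 and 83.4 CPM and Sema3g, lower with Ptgs2, at 37.4 and 61.4 CPM.

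Ptges, the inducible microsomal prostaglandin E synthase that works with Ptgs2, lies on the minus strand at chr2:30889471-30929863 and was the rarest member, with 819 UMIs over all barcodes. It overlaps the model Gm13400 on the same strand. It was highest in pericyte-like cells at 59.1 CPM (39.6 to 84.9, from 29 UMIs) and endothelial-like cells at 54.8 CPM (50.2 to 59.7, from 519 UMIs), whose intervals overlapped (36.4 CPM in endothelial-like cells under the same 2 SD limit), and a UMI was found in 20.5% and 21.4% of cells. Neutrophil-like cells, the next class, had 4.56 CPM from 7 UMIs. The 22 fibroblast-like cells, too few for a level of their own, had 14 UMIs in 11 cells. Oligodendrocyte-like cells had 14 UMIs and microglia-like cells 12 UMIs in all, and 0 of 2056 T-cell-like cells had one, which allows up to 0.146% of such cells with a UMI at this depth and sets no limit on cells that express the gene. Of the 819 UMIs, 781 came from library 3, which held 17 of the T-cell-like and 41 of the 334 neutrophil-like cells. Both classes therefore give no background for the endothelial-like and pericyte-like levels, which are mostly those of library 3. Within library 3, oligodendrocyte-like cells had 0.520 CPM from 14 UMIs and microglia-like cells 0.398 CPM from 5 UMIs. Of the endothelial-like cells with Ptgs2, 44.1% also had a Ptges UMI, against 13% of those without. After thinning to 4000 UMIs these shares were 22.8% and 9.05%. Both genes were found in 126 cells, 11.9% of the class, while none of the 3 pericyte-like cells with Ptgs2 had Ptges. Neutrophil-like cells, high in Ptgs2, had Ptges in 1.78% of the cells with it and 1.82% of those without.

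Ptges3, also known as p23, is a co-chaperone of Hsp90 with prostaglandin E synthase activity and lies on the plus strand at chr10:128058954-128077272. It was found in every class at 83.5 to 298 CPM. Oligodendrocyte-like (298 CPM, interval 294 to 302) and neuron-like cells (294 CPM, 266 to 325) led and overlapped, and neutrophil-like cells were the lowest, overlapping monocyte-like cells. By library, oligodendrocyte-like cells had 299, 308 and 288 CPM and microglia-like cells 152, 141 and 185 CPM, so the 2 classes did not overlap in any library. A processed pseudogene, Ptges3-ps, resembles it and was not counted as a gene of its own, so reads shared with it could not be separated.

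Ptgds, the lipocalin-type prostaglandin D synthase that is secreted and also carries lipids, lies on the minus strand at chr2:25466709-25470046. In oligodendrocyte-like cells it stood at 20569.9 CPM, with a UMI in 98.1% of cells. It ranked 5 of 31053 genes there by UMIs, which a 3′ kit counts per transcript and not per length. By library the level was 19378.9, 21738 and 20354 CPM, a spread far smaller than the gap to any other class. The counts per cell were wide: the median was 79 UMIs, the quartiles were 13 and 197, and the highest cell had 1988. Cells with at most 5 UMIs were 15.5% of the class and those with at least 100 were 44.4%.

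Low counts of Ptgds were found in every class. RNA loose in the suspension reaches every droplet of a library, so the counts outside the oligodendrocyte lineage were set beside each other within a library. In the 7 classes of at least 30 cells outside that lineage, astrocyte-like and choroid plexus-like cells, Ptgds UMIs per cell ran from 1.16 to 1.78 in library 1, from 1.44 to 2.69 in library 2 and from 4.37 to 10.6 in library 3. Barcodes under 1000 UMIs, which were left out as cells, had 1.84, 2.29 and 5.64 Ptgds UMIs each. Library 3 was thus the highest in cells and in these small barcodes alike. The small barcodes had medians of 709, 734 and 746 UMIs, so they may hold cells and are no direct measure of free RNA. The 233 CPM of Ptgds in microglia-like cells, with a UMI in 77.4% of them, lay beside 264 CPM and 70.7% in T-cell-like cells. Pericyte-like cells had 1530 CPM. Their 5.78 UMIs per cell in library 3 were, among the 7 classes, below only the 10.6 of 41 neutrophil-like cells. Both levels are taken as background. Both classes are among those that set the range, so lying inside it was fixed in advance and background was not tested. In 91 microglia-like cells (0.942%) and 1 T-cell-like cell, 10 or more Ptgds UMIs were found. By library the microglia-like level was 147, 165 and 685 CPM.

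Among classes of at least 30 cells in a library, choroid plexus-like cells, which make cerebrospinal fluid, were the exception. Their Ptgds level was 3476 CPM (3415 to 3537), with a UMI in all 208 cells and a median of 44.5. They held 53.2 UMIs per cell in library 1 and 67.6 in library 2, far above the range of the other classes, at medians of 15403 and 13680 UMIs. Astrocyte-like cells, at 737 CPM, had 1.23, 1.41 and 4.85 Ptgds UMIs per cell in the 3 libraries, no higher than the other classes, and are read as background. The 22 fibroblast-like cells had 327 Ptgds UMIs, 319 of them in the 18 cells of library 3. Per cell that is above the range of the other classes in library 3, but from too few cells for a level.

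**Figure D4:**
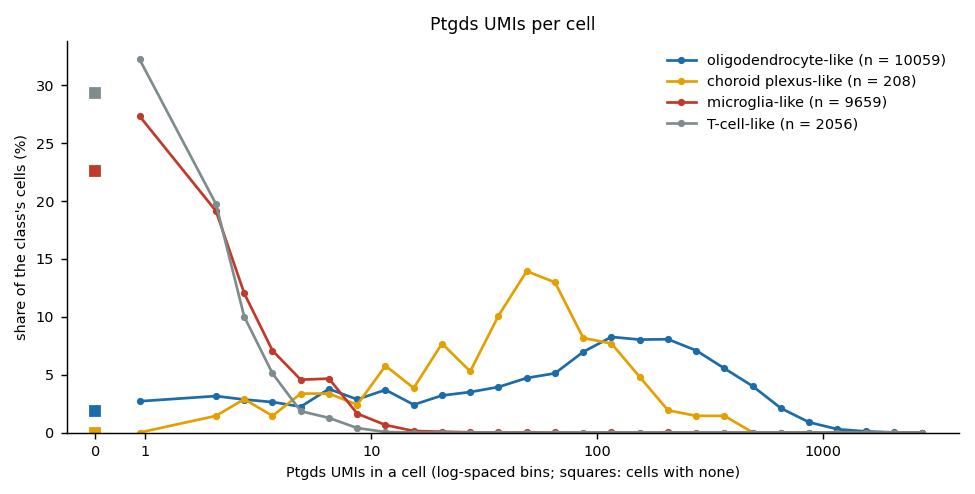
Share of cells (%, vertical axis) by Ptgds UMIs in the cell (log-spaced bins, squares for cells with none) in 4 classes. Microglia-like and T-cell-like cells lie together at a median of 2 and 1 UMIs, choroid plexus-like cells around 44.5 and oligodendrocyte-like cells around 79 with a long tail to both sides.

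Oligodendrocyte-like cells differed in Ptgds along with other genes of the class, fixed as partners. The 7993 cells with no Klk6, a secreted serine protease, had 25943 CPM of Ptgds, those with 1 UMI had 16004 CPM and the 1342 cells with 2 or more had 3951 CPM. In each library the cells with 2 or more were the lowest, at 3956, 4532 and 3394 CPM against 25269, 27194 and 25269 CPM in cells with none. Il33, a cytokine of mature oligodendrocytes, ran the other way: Ptgds stood at 6947 CPM in the 2764 cells with none, 18275 CPM with 1 UMI and 26313.5 CPM in the 5905 cells with 2 or more. Opalin, a myelin membrane protein, gave 5144 and 24416.5 CPM. Depth ran against the first pattern, since cells rich in Klk6 were deeper (9910.5 against 5704 UMIs in the median), and with the second. After thinning to 4000 UMIs a Ptgds UMI was found in 75.1% of cells with 2 or more Klk6 UMIs and 98.4% of those without, and in 99% and 86.0% by Il33. For partners that nearly all of these cells had, the cells with none were few and shallow. Ptgds stood at 4105 CPM in the 237 cells with no Car2, carbonic anhydrase 2, and 20983 CPM in those with 2 or more UMIs, at 3966.5 and 20989.6 CPM by Apod (197 cells with none), a lipocalin like Ptgds, and at 1450.4 and 20737 CPM by Mbp (71 cells with none), myelin basic protein. Their medians with none were 1633, 1854 and 1622 UMIs.

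Hpgds, the hematopoietic prostaglandin D synthase, lies on the minus strand at chr6:65117293-65144908. Microglia-like cells had 185 CPM (182 to 188) and a UMI in 71.9% of cells, and border macrophage-like cells had 156 CPM (130 to 186), with overlapping pooled intervals. Library 3 gave 102 of the 123 border macrophage-like cells but 1832 of the 9659 microglia-like cells, which had 222 CPM there. The pooled overlap therefore sets unlike libraries beside each other and gives no order of these classes. Monocyte-like cells followed at 50.1 CPM (36.4 to 67.3). The 6 mast cell-like cells, a type known for this enzyme, had 7 UMIs, too few for a level. T-cell-like cells had 11.8 CPM and a UMI in 5.69% of cells, and oligodendrocyte-like cells 9.44 CPM and 4.36%. Hpgds in oligodendrocyte-like cells was thus no higher than in T-cell-like cells. By CPM the same held for Ptgds in microglia-like cells. By library microglia-like cells had 191, 172 and 222 CPM of Hpgds, closer together than for Ptgs1 and Hpgd. The gene model Gm17147 overlaps Hpgds on the other strand, and Gm43621 likewise overlaps Ptgs1. Neither has a row of its own in the matrix.

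Hpgd, whose enzyme inactivates prostaglandins, lies on the plus strand at chr8:56294585-56321043 and overlaps the model Gm45540 on the same strand. It was the 1 member led by border macrophage-like cells, the macrophages of vessels and meninges, with 422 CPM (378 to 470). Of their 123 cells, 74.8% had a UMI. Microglia-like cells had 160 CPM (157 to 162) and 60.7%, and all other classes were at 22.4 CPM or less. Within library 3, which held 102 of the border macrophage-like cells, the levels were 431 and 319 CPM, so the gap was smaller there than in the pool. By library microglia-like cells had 151, 123 and 319 CPM, and library 3 was again the highest. Oligodendrocyte-like cells had 6.06 CPM, beside 4.30 CPM in T-cell-like cells.

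Transcripts of several steps were found together in single microglia-like cells. A UMI of each of Ptgs1, Hpgds and Hpgd was found in 33.4% of cells as deposited, and none of the 3 in 6.86%. Singly they were found in 64.5%, 71.9% and 60.7%. The share with all 3 that these alone would give was not computed, so the joint share does not show that the genes go together. Of the 8010 cells that could be thinned to 4000 UMIs, 15.6% then had all 3 and 19.3% none. In library 3 the share with all 3 was 32.3%, against 13% and 10.6% in libraries 1 and 2. At 4000 UMIs, Hpgd was found in 54.6% of cells with Ptgs1 and 34.3% of those without, but within library 3 in 69.8% and 69.7%, so that the pooled difference was not seen in every library. The same comparison gave 49.7% and 37.2% in library 1 and 45.6% and 28.0% in library 2. At 4000 UMIs, Ptgs1 was less often found with Ptgs2 than without it in the pool and in libraries 1 and 2, but not in library 3. It was found in 40.5% of the cells with Ptgs2 and 48.2% of those without. The shares were 39.0% and 43.2% in library 1, 33.3% and 38.6% in library 2 and 80.4% and 78.0% in library 3. As deposited, the pooled shares were 64.8% and 64.5%.

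Ptgs1, Hpgd and Hpgds were lower, and Ptgs2 higher, in microglia-like cells with 2 or more UMIs of Cst7 than in those with none. Cst7 encodes cystatin F and is a gene of activated microglia. In the 4392 cells with no Cst7, Ptgs1 stood at 308 CPM, and in the 4416 cells with 2 or more UMIs at 91.0 CPM. Hpgd stood at 309 and 87.0 CPM and Hpgds at 243 and 154 CPM, while Ptgs2 stood at 41.3 and 73.9 CPM. The 851 cells with 1 UMI had 219.7 CPM of Ptgs1 and 222 CPM of Hpgd, between the others, but 242 CPM of Hpgds, as with none, and 74.8 CPM of Ptgs2, as with 2 or more. Library 3 had only 8 cells with 2 or more Cst7 UMIs, so the libraries enter unequally. Within library 1 the pairs were 236 and 96.1 CPM for Ptgs1, 261 and 105 CPM for Hpgd, 256 and 163 CPM for Hpgds and 59.1 and 80.7 CPM for Ptgs2. Within library 2 they were 244 and 87.6, 330 and 77.9, 266 and 149, and 45.7 and 70.7 CPM. In library 1 Ptgs2 was highest with 1 UMI, at 102 CPM. Cells with Cst7 were deeper (12059.5 against 5533 UMIs in the median). After thinning to 4000 UMIs, Ptgs1 was found in 65.4% of cells without Cst7 and 28.8% of those with 2 or more, and Ptgs2 in 9.44% and 14.6%. Within library 1 the thinned shares for Ptgs2 were 14.0% and 15.4%.

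**Figure D5:**
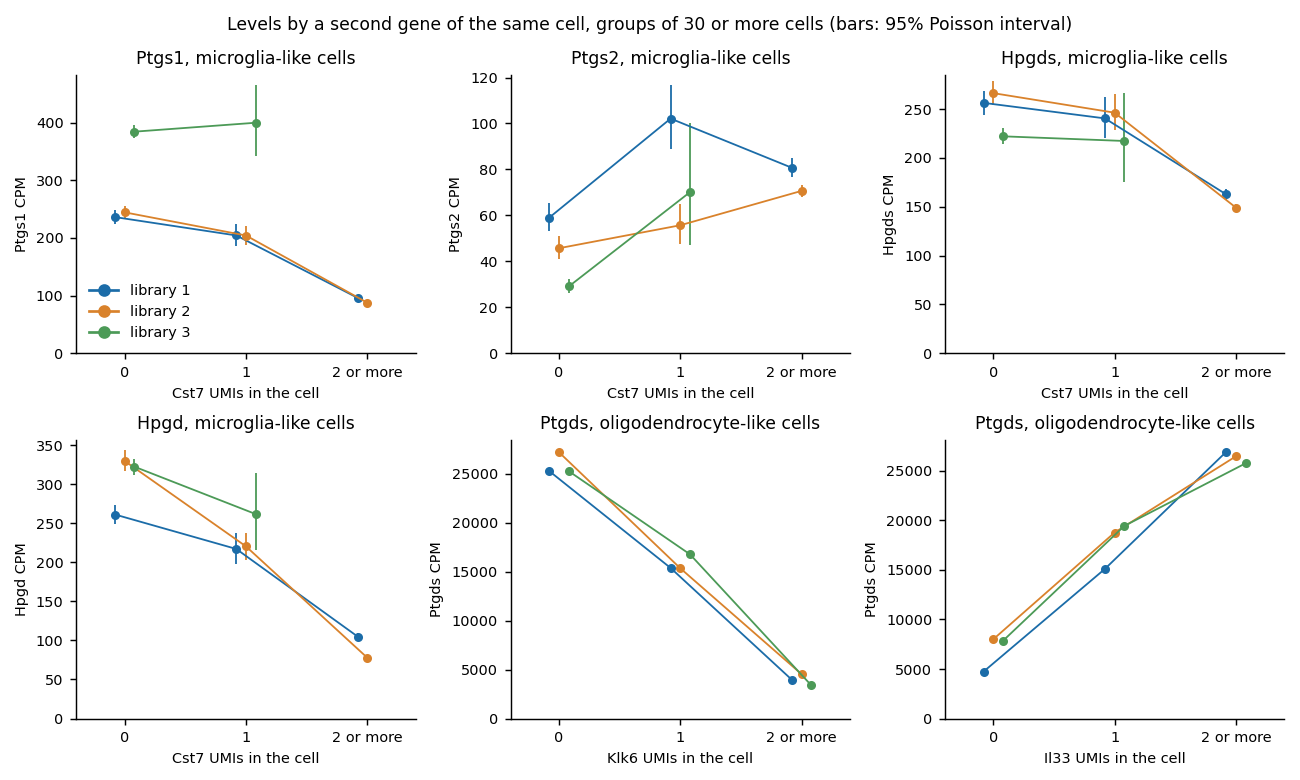
CPM of members (vertical axes, from 0) in cells with 0, 1 and 2 or more UMIs of a partner gene, by library, with 95% Poisson intervals and groups of at least 30 cells. Ptgs1, Hpgds and Hpgd lie lower in microglia-like cells with 2 or more Cst7 UMIs in libraries 1 and 2, and Ptgds lies lower with Klk6 and higher with Il33 in all 3 libraries.

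By other partners, the pooled levels of the cyclooxygenases ran in opposite directions for Il1b but in the same direction for Nfkbia. By Il1b, the inflammatory cytokine interleukin-1 beta, Ptgs2 stood at 49.7 CPM in microglia-like cells with none and 91.1 CPM in those with 2 or more UMIs, and Ptgs1 at 195 and 112 CPM. The ratio for Ptgs2 was 2.05-fold, 1.54-fold and 1.25-fold in the 3 libraries, and that for Ptgs1 0.676-fold, 0.656-fold and 0.920-fold. By Nfkbia, an inhibitor that NF-kappa B itself induces, Ptgs2 stood at 8.04 CPM in the 404 cells with none and 66.2 CPM in the 8964 with 2 or more, and in library 3 the first group had too few UMIs for a fold. Ptgs2 by Tnf, tumour necrosis factor, stood at 29.5 and 70.8 CPM, higher with Tnf in each library (3.08-fold, 1.84-fold and 1.97-fold). Ptgs1 stood at 213 and 153 CPM by Tnf, with 0.991-fold, 0.783-fold and 0.947-fold in libraries 1, 2 and 3. By Nfkbia, Ptgs1 stood at 119 and 163 CPM, higher with Nfkbia in each library (1.18-fold, 1.14-fold and 2.02-fold). The intervals overlapped in libraries 1 and 2, and in library 2 the cells with 1 UMI were the highest, at 169 CPM. The Ptgs1 shares thinned to 4000 UMIs were 27.5% and 43.6%, 37.3% and 37.9%, and 59.5% and 78.7% in libraries 1, 2 and 3. By Ifnb1, interferon beta, the pooled levels of Ptgs2 were 54.0 and 66.7 CPM, and library 3 went the other way (0.773-fold). Cells with a partner were deeper, by Nfkbia 7841.5 against 2708.5 UMIs in the median. After thinning to 4000 UMIs, Ptgs2 was found in 10.1% of cells with no Il1b and 18.3% of those with 2 or more, in 8.12% and 13.5% by Tnf and in 3.52% and 12.4% by Nfkbia, the latter with 8.11% and 6.77% in library 3. By Ifnb1 the thinned shares were 12.2% and 12%, with no common direction in the libraries (12.6% and 14.6%, 14.3% and 12.5%, 8.32% and 6.07%). Hpgds stood at 205 and 154 CPM by Il1b and 219 and 179 CPM by Tnf, with thinned shares of 52.6% and 43.5%, and 51.8% and 50.3%. Not every library followed: by Il1b the ratio was 0.763-fold, 0.732-fold and 1.04-fold in libraries 1, 2 and 3. By Tnf the thinned shares in library 1 were 47.3% and 53.2%. Hpgd stood at 194 and 105 CPM by Il1b and 253 and 142 CPM by Tnf, lower with the partner in each library. By Il1b the intervals overlapped in library 3, where the thinned shares were 70.2% and 70.1%.

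The other genes of the pathway were a list of 32, of which 25 reached 10 CPM in some class and 15 reached it in oligodendrocyte-like or microglia-like cells. Of those 15, 6 were at least 4-fold higher in microglia-like and 1 at least 4-fold higher in oligodendrocyte-like cells (40.0% and 6.67%), beside the background of 13.3% and 19.1%. Among the release genes, the phospholipase Pla2g4a was highest in endothelial-like cells (65.5 CPM), the lysosomal phospholipase Pla2g15 was 86.4 CPM in microglia-like against 5.39 CPM in oligodendrocyte-like cells, and Faah, which breaks down endocannabinoids, was 25.2 CPM in oligodendrocyte-like against 0.465 CPM in microglia-like cells. Mgll, whose enzyme supplies arachidonic acid in brain, was highest in astrocyte-like cells (229 CPM). Among other synthases, thromboxane synthase Tbxas1 was 83.1 CPM in microglia-like and 3.89 CPM in oligodendrocyte-like cells, and prostacyclin synthase Ptgis was 225 CPM in smooth muscle-like cells, above 13.3 CPM in endothelial-like cells.

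In the leukotriene branch, which starts from the same arachidonic acid, Alox5ap was highest in neutrophil-like cells at 1174 CPM and Ltc4s stood at 349 CPM in microglia-like against 12 CPM in oligodendrocyte-like cells. The prostaglandin transporter gene Abcc4 was highest in endothelial-like cells at 130 CPM, with 11.4 CPM in choroid plexus-like cells next. Slco2a1, the uptake transporter, stood at 3.27 CPM there, from 31 UMIs. Of the 10 receptor genes, 5 reached 10 CPM in some class. Ptgfr did so from 5 UMIs in pericyte-like cells (interval 3.31 to 23.8 CPM). Pparg did so from 8 UMIs in border macrophage-like cells (4.35 to 19.9 CPM). Ptger4, a prostaglandin E2 receptor, was highest in monocyte-like cells (86.6 CPM) and T-cell-like cells (47.7 CPM) and stood at 27.2 CPM in microglia-like and 1.96 CPM in oligodendrocyte-like cells. The thromboxane receptor gene Tbxa2r was highest in pericyte-like cells at 263 CPM. Of the prostaglandin D2 receptor genes, Ptgdr had no UMI in any of the 15 classes and Ptgdr2 had at most 3 in a class.

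By profile over the 15 classes (Pearson r of log2 CPM with 1 CPM added, among 13539 genes of at least 10 CPM in a class), the gene most like each member was as follows. The nearest to Ptgds was Cryab, a small heat shock protein of oligodendrocytes (r = 0.913), and to Ptgs1 the lectin gene Siglech, itself a microglia gate marker (r = 0.985), then Csf1r (r = 0.951). Tgm2 was nearest to Ptgs2 (r = 0.957) and Fcgr2b, an inhibitory antibody receptor, to Hpgds (r = 0.961). Tbxas1 was the third nearest to Hpgds (r = 0.955) and Pla2g15 first for Hpgd (r = 0.939), both on the pathway list. Emcn, an endothelial surface protein, was nearest to Ptges (r = 0.943) and Thumpd1 to Ptges3 (r = 0.967). These are correlations over classes that share libraries and free RNA, and are given as a description.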

How the data were processed

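Counts of UMIs per gene and barcode were deposited by the authors as 1 matrix of 3 libraries. Per the labels, it was made with Cell Ranger 3.1.0 and STAR on build mm10, with Seurat 3.1.1 also named in the submitters' processing notes, and the study describes the libraries as down-sampled to like depth before aggregation. From these counts, barcodes with at least 1000 UMIs and at most 30% mitochondrial UMIs were kept and gated: a class needed at least 3 UMIs over at least 2 of its markers and at least 4 times the marker UMIs of every other class passed. Doublets were scored against simulated pairs (2 per cell, 2000 variable genes, 30 components, 50 neighbours), and the 10% highest were left out only as an alternative. With 1 library per condition no test was run. Intervals are exact Poisson, Clopper-Pearson or conditional binomial at 95%, and cover counting error only. Depth was matched by thinning to 1000 UMIs or, within a class, 4000 UMIs, the latter chosen after the data were seen. The named genes were the members, a pathway list, gate markers, partner genes and the 3 genes nearest in profile to each member. A listed partner gene is not reported here. Vessel genes in endothelial-like cells were added after values were seen. Members and lists were chosen with earlier results of these data known. Code was tested on simulated data and run with Python 3.11.15, NumPy 2.4.6, SciPy 1.17.1, pandas 2.3.3, scikit-learn 1.9.0 and Matplotlib 3.10.9.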

Additional observations from a re-analysis of the deposited data

Results flagged for a closer look

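Barcodes that passed several gates without a clear leader were used in no comparison. They held part of every member's UMIs, more than a count of 0 would leave possible. Of all its UMIs, the share there was 7.39% for Ptgds, 11.4% for Ptgs1, 13.5% for Ptgs2, 9.74% for Hpgds, 11.5% for Hpgd, 24.3% for Ptges and 12.3% for Ptges3. These 2913 barcodes were 9.11% of the kept cells. In library 3 they were 12.4%, against 7.68% and 7.86% in libraries 1 and 2.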

How the results depend on the processing

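Over 13 alternatives, the 7 ratios of oligodendrocyte-like over microglia-like cells gave 89 values. No ratio whose interval left out 0 changed sign. Of the values, 39 moved by less than their counting interval and 50 by more, 8 of the latter by over 1.5 times. All ratios here are log2, and the cause of the moves was not tested. With cells passing exactly 1 gate, the ratio was -5.35 for Hpgd, -4.83 for Hpgds, 6.77 for Ptgds, 1.03 for Ptges3, -5.68 for Ptgs1 and -4.47 for Ptgs2. Without the 10% highest doublet scores it was -5.50 for Hpgd, -5.12 for Hpgds, 6.50 for Ptgds, -6.01 for Ptgs1 and -4.66 for Ptgs2. With barcodes beyond 2 SD of the mean UMI or gene number left out and no UMI minimum it was -5.16 for Hpgd, -4.66 for Hpgds, 6.33 for Ptgds, 0.95 for Ptges3, -5.44 for Ptgs1 and -4.03 for Ptgs2. Thinned to 1000 UMIs it was -5.00 for Hpgd, -4.49 for Hpgds, 5.91 for Ptgds, 0.83 for Ptges3 and -5.24 for Ptgs1, with too few Ptges UMIs for a value. As a mean of per-cell CPM it was -5.05 for Hpgd, -4.51 for Hpgds, 5.91 for Ptgds, 0.82 for Ptges3 and -5.12 for Ptgs1, and as a mean of the 3 libraries -5.00 for Hpgd, 5.95 for Ptgds, 0.90 for Ptges3, -5.20 for Ptgs1 and -3.40 for Ptgs2. Ptgds was 6.53 with at least 2000 UMIs, 6.44 with at least 500 and 6.41 with stricter gates, and Ptges3 0.94 with stricter gates and 1.03 at 10% mitochondrial UMIs. Leaving out each library in turn gave -5.09 to -4.32 for Hpgd, -4.74 to -3.84 for Hpgds, 5.98 to 7.03 for Ptgds, 0.75 to 0.84 for Ptges, 0.85 to 1.07 for Ptges3, -5.29 to -4.30 for Ptgs1 and -3.78 to -3.34 for Ptgs2. Ptges had no value without library 3.

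Of 261 other values, chosen after seeing the data, 144 moved by less than their interval, 117 by more and 6 by over 1.5 times. No ratio among them whose interval left out 0 changed sign. Levels of single classes have no direction to change, and their order was not scored. The pooled order of endothelial-like and neutrophil-like cells for Ptgs2 did change, as given above. No paired analysis was possible because each condition had 1 library and no test was run. Depth limited Ptges most, with 14 UMIs in oligodendrocyte-like and 12 in microglia-like cells. Its ratio of 0.59 (-0.63 to 1.83) turned to -0.14 as a mean of the 3 libraries and ran up to 1.58 as a mean of per-cell CPM, and no difference was detectable at this depth.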

Other observations

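Among the 2370 cells that passed no gate, Hpgds stood at 103 CPM with a UMI in 28.6% of cells, Ptgs2 at 59.6 CPM with a UMI in 9.70% and Ptgs1 at 33.2 CPM with a UMI in 12.1%. Ptges was nearly absent from them, with 5 UMIs in all. The barcodes under the filters held 1.30% of the Ptgds UMIs and at most 1.15% of those of any other member.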
